A study of Mus musculus with 4 samples.

Results

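The genes described here are 8 targets of the peroxisome proliferator-activated receptors (PPARs) that heart and skeletal muscle use to change from glucose to fat as fuel, namely Angptl4, Pdk4, Cpt1a, Ucp3, Acot1, Acot2, Plin2 and Plin5, together with Ppara, the gene of the receptor PPARα. They were chosen by name, and all 9 were found among the 23282 genes listed for the heart. Hearts of male CDF1 mice from 4 groups were sequenced with the QuantSeq kit, which reads the 3′ end of mRNA, and 1 library was made for each group. The groups were the normal control E(−)T(−), with neither exercise nor tumor, the normal exercise group E(+)T(−), which ran on a treadmill at high intensity, the cancer control E(−)T(+), which received CT26 mouse colorectal carcinoma cells in the tail vein, and the cancer exercise group E(+)T(+), which had both. All mice were fed chow without restriction, and no group was fasted by the protocol. The study nevertheless reports that food intake and body weight differed between the groups. By its account cancer control mice lost weight, whereas exercised mice kept theirs with or without tumor. The part of food intake and weight in the values below was not tested. The labels give postnatal day 28 for every library, whereas the study's methods give this age at purchase, with tissues taken later, at the end of the experiment. The study took its leg muscle libraries from 1 representative mouse per group and describes the heart analysis as similar, without stating whether a heart library came from 1 mouse or a pool. There was no replicate in any group, so a difference between libraries has no replicate check, and no p-value for exercise or tumor is given.

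PPARs are nuclear receptors that bind fatty acids and pair with retinoid X receptors on DNA. During fasting, fat tissue releases fatty acids, and PPARα in the heart raises genes that take up, transport, store and oxidize them, while pyruvate dehydrogenase, the entry of glucose carbon into the citric acid cycle, is switched off. PPARδ and PPARγ act on many of the same genes, PPARγ mostly in fat cells.

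In the annotation of GENCODE M21 on mm10 (GRCm38), Angptl4 lies at chr17:33773750-33781830, Pdk4 at chr6:5483351-5496309, Plin2 at chr4:86648386-86670060 and Plin5 at chr17:56111601-56117596, all on the minus strand. Cpt1a lies at chr19:3322334-3385733, Ucp3 at chr7:100472990-100486432, Ppara at chr15:85734983-85802819, Acot2 at chr12:83987861-83993873 and Acot1 at chr12:84009490-84018371, all on the plus strand. Acot1 and Acot2 are neighbours, 15616 bases apart, and their coding sequences are 85.7% identical. None of the 426 windows of 75 bases in the last 500 bases of any of the 9 transcripts occurred unchanged in a transcript of another gene, so that their 3′ reads can be told apart in this annotation.

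PPARs bind a pair of AGGTCA repeats 1 base apart, spelled AGGTCANAGGTCA. Promoter windows of 300 bases, which reach past the RefSeq gene start, were searched for it on both strands. RefSeq (GRCm38.p6) gave promoters for 8 of the 9 genes, all but Angptl4. The windows of Cpt1a (chr19:3323051-3323350) and Ppara (chr15:85735526-85735825) lie inside these genes as placed by GENCODE above. Of the sequences below, those of Ucp3 and Pdk4 are shown because both genes differed between the libraries, and that of Plin2 because Plin2 did not pass 2-fold although it matched the motif as well as Ucp3. All are written 5′ to 3′ on the strand of the gene, and capitals mark the best match. They span chr7:100472741-100472989 for Ucp3, chr6:5496310-5496528 for Pdk4 and chr4:86670061-86670309 for Plin2.
Ucp3: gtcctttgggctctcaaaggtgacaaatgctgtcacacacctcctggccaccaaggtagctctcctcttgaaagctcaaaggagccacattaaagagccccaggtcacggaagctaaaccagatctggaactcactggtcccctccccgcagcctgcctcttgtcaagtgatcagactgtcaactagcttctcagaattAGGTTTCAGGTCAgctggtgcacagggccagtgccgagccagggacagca
Pdk4: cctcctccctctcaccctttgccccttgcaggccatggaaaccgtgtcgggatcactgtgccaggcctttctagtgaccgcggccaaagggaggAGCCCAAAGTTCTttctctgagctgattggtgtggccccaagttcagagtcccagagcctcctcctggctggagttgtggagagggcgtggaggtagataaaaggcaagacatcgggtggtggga
Plin2: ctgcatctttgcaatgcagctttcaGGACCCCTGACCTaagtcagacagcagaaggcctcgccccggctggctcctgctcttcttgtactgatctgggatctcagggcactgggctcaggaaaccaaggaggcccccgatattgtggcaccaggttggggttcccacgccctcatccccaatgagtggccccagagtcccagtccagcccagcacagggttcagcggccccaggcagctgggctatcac
The best match in Ucp3, AGGTTTCAGGTCA, began 51 bases before the start and kept 10 of the 12 defined letters. In Plin2 the best match, GGACCCCTGACCT, lay 225 bases before the start, is the motif on the opposite strand, and also kept 10 of the 12. As many were kept in 3.86% of 32851 RefSeq promoters of the same 300 bases. Acot2 and Plin5 reached 9 of 12, as did 24.6% of promoters, and Pdk4, Acot1, Cpt1a and Ppara reached 8 of 12, as did 79.8%. Such a match is a description of letters only. Among these 8 genes, without Angptl4, it did not separate those that differed from those that did not.

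The deposited values are log2(normalized read count + 1), and the reads behind them could be recovered. Because the deposited values are rounded, the recovered counts of highly expressed genes and the library totals are approximate. The libraries held about 6595428 to 11545934 reads. The 12 cardiomyocyte markers were all detected, with summed normalized read counts of 495907 to 550516, and none passed 2-fold in any comparison. E(+)T(+) stood apart by its erythroid mRNA, with 37.3% of reads from globin genes against 7.86% to 8.76% in the other libraries. All 12 erythroid markers found were over 2-fold higher there than in each other library. More blood, more immature red cells and more RNA per cell cannot be told apart here. A gene was called when it differed by at least 2-fold and either of the 2 libraries held at least 4 normalized reads of it. The study also used 2-fold, and it names a normalized read count of 4 as its minimum. It does not say whether this was applied on the log2 scale, or whether 1 library or both had to reach it. With a log2 value of at least 4 in either library, an alternative added after the data were seen, the members called were the same 3, 4, 4, 0 and 1 in the 5 comparisons, but fewer of all genes were called, and those shares are given beside the main ones. Counts in gene lists are likewise to be read against the shares of all genes. Each interval given below is the 95% Clopper-Pearson interval for the ratio of the reads. They cover counting error only, as does an exact binomial test of the reads, which compares libraries and not conditions.

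The pattern shared by Angptl4, Pdk4 and Ucp3 was one in which the library of resting normal mice was highest and that of resting tumor-bearing mice lowest. Angptl4 encodes angiopoietin-like 4, a secreted inhibitor of lipoprotein lipase, the enzyme that frees fatty acids from circulating triglyceride. It had 138 reads in the normal control library, 32 in normal exercise, 5 in cancer control and 38 in cancer exercise, or deposited log2 values of 7.31, 4.90, 2.38 and 5.41. Pdk4 encodes pyruvate dehydrogenase kinase 4, which phosphorylates and switches off pyruvate dehydrogenase. It had 141, 86, 19 and 76 reads in the same order, or log2 values of 7.34, 6.30, 4.13 and 6.39. Ucp3, an uncoupling protein of the inner mitochondrial membrane of muscle and heart, had 44, 27, 2 and 25 reads, or log2 values of 5.67, 4.67, 1.36 and 4.82. In all 3 genes the exercised libraries E(+)T(−) and E(+)T(+) lay between the resting ones.

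The other 6 genes covered narrower ranges. Cpt1a is the carnitine palmitoyltransferase of the outer mitochondrial membrane that is best known from liver, and it had 90, 117, 132 and 110 reads, in the order of libraries used for Angptl4 above. Its log2 values ran only from 6.70 to 6.92. Acot1 and Acot2 encode acyl-CoA thioesterases of the cytosol and of mitochondria, which release free fatty acid from acyl-CoA. Acot1 had 49, 42, 80 and 56 reads in the same order, with log2 values of 5.84, 5.28, 6.16 and 5.96, and Acot2 had 751, 789, 584 and 436, with log2 values of 9.75, 9.48, 9.01 and 8.90. Acot2 was thus lower in both tumor-bearing libraries than in both others, by less than 2-fold, while the values of Acot1 lay the other way round. That order of Acot1 was not resolved. Its log2 fold change for E(+)T(+) vs. E(−)T(−) was 0.12 (interval −0.45 to 0.71), and −0.60 with reads scaled by library size.

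Plin2 and Plin5 encode perilipins, which coat lipid droplets, Plin2 in most cells and Plin5 in oxidative tissues such as heart. Plin2 had 423, 494, 420 and 447 reads, again in that order, with log2 values of 8.92, 8.81, 8.54 and 8.94. Plin5 had 599, 702, 523 and 943 reads, with log2 values of 9.43, 9.31, 8.85 and 10.01, and E(+)T(+) was its highest library. Ppara had 553, 866, 258 and 409 reads, with log2 values of 9.31, 9.62, 7.84 and 8.81. Both tumor-bearing libraries were below both others in Ppara, and its order differed from that of Angptl4, Pdk4 and Ucp3 in that E(+)T(−) was highest.

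**Figure D1:**
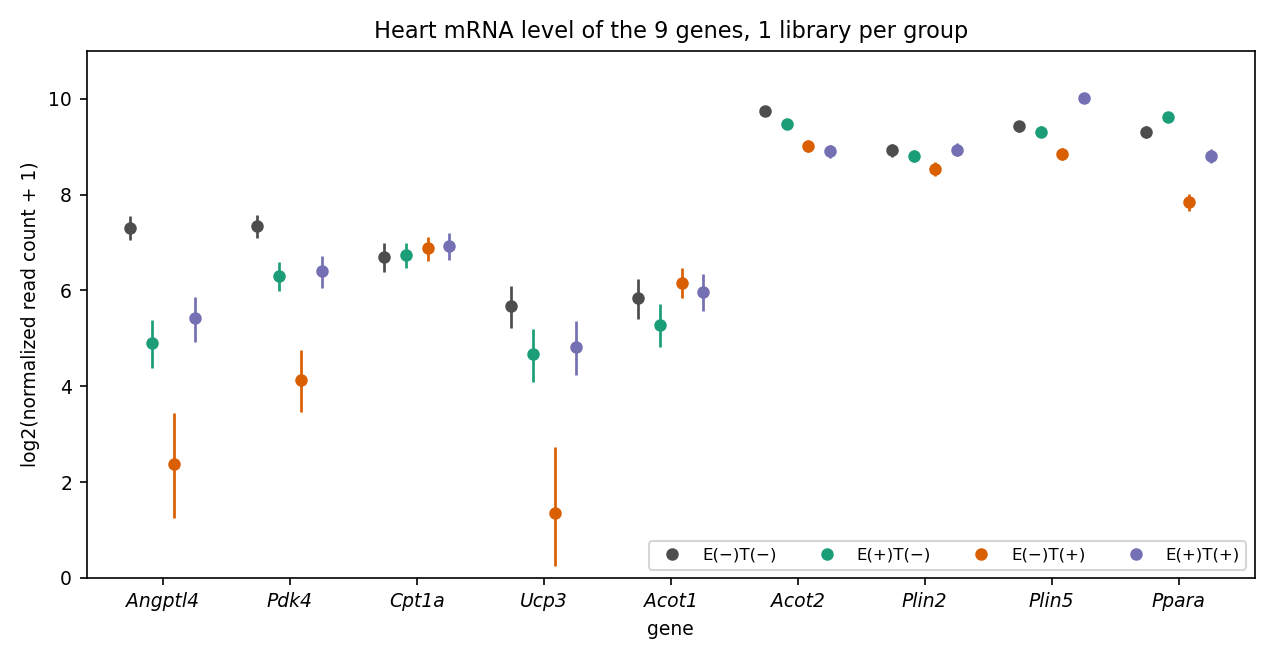
Deposited log2(normalized read count + 1) of the 9 genes in the 4 heart libraries, 1 point per library, with 95% Poisson intervals of the reads as bars. Angptl4, Pdk4 and Ucp3 were lowest in E(−)T(+), with 5, 19 and 2 reads, whereas Cpt1a stayed between 6.70 and 6.92.

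The first comparison, E(+)T(−) vs. E(−)T(−), addressed exercise in normal mice. Angptl4, Pdk4 and Ucp3 were lower in the exercised library and no member was higher, so that 3 of 9 were called lower, against 6.4% lower and 5.88% higher among the 13937 genes kept (3.49% and 3.26% with the log2 minimum). Angptl4 was 5.31-fold lower (log2 fold change, −2.41, interval −3.05 to −1.89). Pdk4 was 2.06-fold lower (−1.04, interval −1.46 to −0.66). Ucp3 was 2.01-fold lower (−1.01, interval −1.79 to −0.32), at the edge of the 2-fold limit, and its call was lost with a pseudocount of 4, where its log2 fold change was −0.93. The Benjamini-Hochberg adjusted p of the exact read test was 6.67e-21 for Angptl4, 1.88e-06 for Pdk4 and 0.0227 for Ucp3. Ppara had a log2 fold change of 0.31, Acot1 of −0.56, Acot2 of −0.27, Plin2 of −0.12, Plin5 of −0.11 and Cpt1a of 0.04. The median over the 9 genes was −0.27, against 0.002 over all genes kept.

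In the same comparison, 12 of 14 markers of fat cells were over 2-fold lower in E(+)T(−), with a median log2 fold change of −2.11. Adipoq, the gene of the fat cell hormone adiponectin, had 317 reads in E(−)T(−) and 78 in E(+)T(−), a log2 fold change of −2.35. Cfd, which encodes the complement factor adipsin, had 1071 and 375 reads (−1.85). Fabp4, a fatty acid binding protein of fat cells and capillary endothelium that is the most abundant of the 14, had 17512 and 16644 reads (−0.42). Over the 4 libraries, the summed normalized read count of the 14 markers ran from 13881 in E(−)T(+) to 22987 in E(−)T(−). Most of this sum was Fabp4, with 13105.5 and 20072.4 in these libraries. Plin1, the perilipin of fat cells, was at 0 reads in E(−)T(+). These markers had the direction of Angptl4, Pdk4 and Ucp3, and the part of fat cells in the differences of the 3 genes was not tested. In bulk tissue, fewer cells of a type and less RNA per cell cannot be told apart.

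The comparison E(−)T(+) vs. E(−)T(−) addressed the tumor in resting mice, and 4 of 9 genes were called lower and none higher, against 13.1% lower and 14.6% higher among 14317 genes (11.2% and 11.8% with the log2 minimum). Angptl4 was 30.5-fold lower (log2 fold change, −4.93, interval −6.81 to −3.91) on 5 reads against 138. Ucp3 was 19.8-fold lower (−4.31), and because only 2 reads were left its interval was wide, from −7.93 to −2.90. Pdk4 was 9.25-fold lower (−3.21, interval −4.04 to −2.57). Ppara itself was 2.78-fold lower (−1.48, interval −1.70 to −1.26), on 258 reads against 553. The differences of Angptl4, Pdk4 and Ucp3 exceeded that of the receptor gene, and their intervals did not meet that of Ppara.

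Among the remaining genes, Acot2 (−0.74) and Plin5 (−0.57) were closest to the limit on the log2 scale, followed by Plin2 (−0.39). Acot1 (0.33) and Cpt1a (0.17) had positive values whose intervals included 0. The median over the 9 genes was −0.74, against −0.011 over all genes. Of the 14 adipocyte markers 12 were called lower in E(−)T(+), against the same E(−)T(−) library as before, with a median log2 fold change of −2.79. Leukocyte and liver markers moved the other way, with 9 of 12 macrophage markers, 9 of 10 neutrophil markers kept and 6 of 10 hepatocyte markers kept called higher (the hepatocyte marker Fabp1 was at 0 in all 4 libraries). Of 12 erythroid markers 2 were higher and 0 lower, with a median of 0.05. The part of these cells in the member values was not tested.

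The comparison E(+)T(+) vs. E(−)T(+) addressed exercise in tumor-bearing mice, and here 4 of 9 genes were called higher and none lower, against 9.39% higher and 10% lower among 14363 genes (6.56% and 7.19% with the log2 minimum). Ucp3 was 11.01-fold higher (log2 fold change, 3.46, interval 1.95 to 7.08), again with only 2 reads in the lower library. Angptl4 was 8.21-fold higher (3.04, interval 1.89 to 4.94) and Pdk4 was 4.80-fold higher (2.26, interval 1.57 to 3.12). Plin5, which had differed by less than 2-fold in both previous comparisons, was 2.23-fold higher (1.16, interval 1.005 to 1.32). Ppara stood just under the limit at 1.96-fold (0.97, interval 0.75 to 1.21). Plin2 had a log2 fold change of 0.40, Cpt1a of 0.05, Acot2 of −0.11 and Acot1 of −0.20.

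The median over the 9 genes was 0.97 in this comparison, against −0.012 over all genes. When reads were scaled by library size instead, the median of all genes moved to −0.60, the call of Plin5 was lost (0.57), and those of Angptl4, Pdk4 and Ucp3 were kept. Differences from E(+)T(+) are therefore given relative to the median of all genes under the deposited normalization. Of 13 adipocyte markers kept, 8 were called higher in E(+)T(+) and none lower, with a median of 1.46. Adipoq rose from 76 to 356 reads and Plin1 from 0 to 76, at least 31.4-fold against a floor of 3 reads. Ucp1, the uncoupling protein of brown fat, had 814 reads in E(+)T(+) and 0 in each other library, so that it was at least 336-fold higher than in E(−)T(+). Of 8 brown fat markers kept, 3 were higher (Ucp1, Elovl3 with 47 against 0 reads and Slc27a2 with 8 against 0) and 1 was lower (Dio2, with 136 against 359 reads), with a median of 0.73, and Lhx8 was at 0 in all 4 libraries. Of 12 macrophage markers 6 were lower and 1 higher, with a median of −1.02, and of 10 neutrophil markers kept 4 were higher and 0 lower. The part of white or brown fat cells, of leukocytes and of the cells behind the erythroid mRNA of E(+)T(+) in the values of Angptl4, Pdk4, Ucp3 and Plin5 was not tested.

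**Figure D2:**
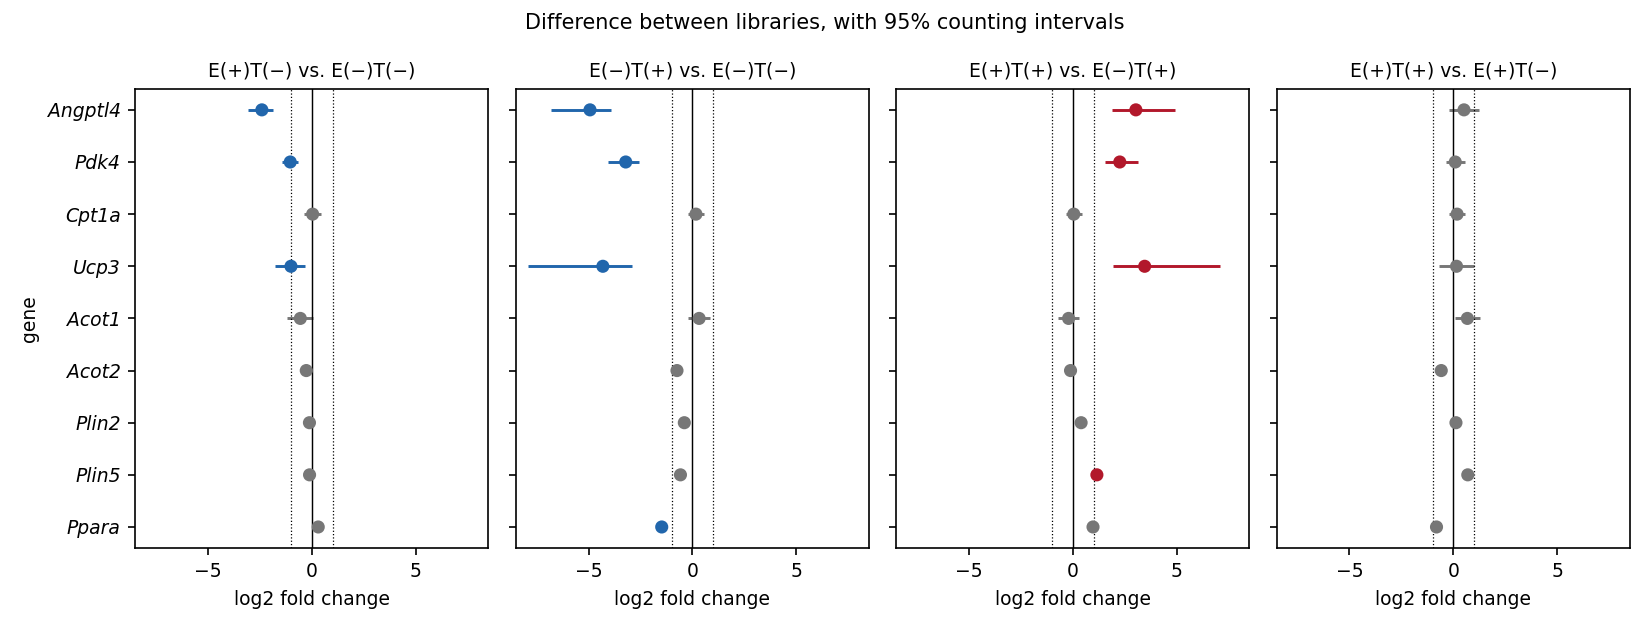
Log2 fold changes of the 9 genes in 4 comparisons of heart libraries, with 95% counting intervals as bars. Blue and red points passed 2-fold lower and higher, grey points did not, and dotted lines mark 2-fold. Angptl4, Pdk4 and Ucp3 were lower with exercise in normal mice and with tumor at rest, and higher with exercise in tumor-bearing mice.

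The exercised library was thus lower than the resting one in Angptl4, Pdk4 and Ucp3 in normal mice and higher in tumor-bearing mice, in pairs that share no library. Such a reversal from lower to higher past 2-fold in both pairs was met by these 3 of 9 genes and by 1.07% of the 13390 genes kept in both (0.411% with the log2 minimum). The log2 fold change with exercise in tumor-bearing mice minus that in normal mice was 5.45 for Angptl4, 4.47 for Ucp3 and 3.30 for Pdk4, and at most 1.27, in Plin5, for the other 6. For Cpt1a it was 0.01. The difference itself could not be tested with 1 library per group.

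Between the exercised libraries, E(+)T(+) vs. E(+)T(−), 0 of 9 genes were called, where 23% of 14289 genes were (17.6% with the log2 minimum). The log2 fold change was 0.52 for Angptl4 (interval −0.20 to 1.25), 0.10 for Pdk4 (interval −0.37 to 0.56) and 0.16 for Ucp3 (interval −0.68 to 1.003), so that the order of these libraries was not resolved for any of the 3. Ppara (−0.81), Plin5 (0.70), Acot1 (0.68, interval 0.086 to 1.302) and Acot2 (−0.58) had intervals that excluded 0. The adjusted p of the exact read test was 0.0511 for Acot1 and under 0.05 for the other 3, as it was for 47% of all genes kept. With scaling by library size, Ppara (−1.53) and Acot2 (−1.30) were past 2-fold, and Plin5 was at −0.02.

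In E(+)T(+) vs. E(−)T(−), the comparison with both exercise and tumor, Angptl4 alone was called, 3.71-fold lower (log2 fold change, −1.89, interval −2.49 to −1.40), against 12.2% lower and 12.4% higher among 14335 genes (10.3% and 9.18% with the log2 minimum). Pdk4 (−0.95), Ucp3 (−0.85) and Acot2 (−0.85) fell short of 2-fold, and leaving out the globin genes and rescaling brought all 3 past it. Ppara was at −0.50 and Plin5 at 0.59. The value of Angptl4 in E(+)T(+) was thus above that of E(−)T(+) but did not reach that of E(−)T(−).

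Relatives and partners of the members were read beside them. Among the pyruvate dehydrogenase kinases, Pdk1 had 902, 990, 892 and 908 reads and Pdk2 had 1785, 2265, 2147 and 2008, in the order E(−)T(−), E(+)T(−), E(−)T(+) and E(+)T(+). Neither passed 2-fold in any comparison, with log2 fold changes of −0.39 and −0.11 in E(−)T(+) vs. E(−)T(−), where Pdk4 was at −3.21. Pdk3 had 13, 27, 74 and 68 reads and was higher with tumor at rest (2.04, interval 1.27 to 3.11). Of the phosphatases that reactivate the complex, Pdp2 was lower in that comparison (−1.32) and higher with exercise in tumor-bearing mice (1.10), and Pdp1 was at −0.85 and 0.10. Over the 13 genes of the complex and its regulators kept besides Pdk4, 1 was called higher and 1 lower with tumor at rest, and 1 higher and 0 lower with exercise in tumor-bearing mice.

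Ucp2, the uncoupling protein of many tissues, had 285, 299, 537 and 1045 reads and was higher with exercise in tumor-bearing mice (1.27), like Ucp3, but not lower with tumor at rest (0.53). Lipoprotein lipase, the target of Angptl4, had 28745, 34368, 66458 and 39536 Lpl reads. Lpl was thus highest in E(−)T(+), where Angptl4 was lowest, with log2 fold changes of 0.83 vs. E(−)T(−) and −0.44 for E(+)T(+) vs. E(−)T(+), both under 2-fold. Gpihbp1, which anchors the lipase on capillaries, was at 0.50 and 0.27. In the list of angiopoietin-like genes and lipase partners, 0 of 9 genes kept besides Angptl4 were called with tumor at rest, and 2 of 10 were higher with exercise in tumor-bearing mice.

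Cpt1b, the carnitine palmitoyltransferase of heart and muscle, had 1543, 1973, 1577 and 1509 reads and did not pass 2-fold in any comparison, with −0.35 for tumor at rest. Other steps of the carnitine shuttle and its regulation differed more in E(−)T(+) vs. E(−)T(−), where 6 of 10 genes kept besides Cpt1a were lower and 1 higher, with a median of −1.08. Cpt2, which works on the inner membrane, was at −1.49, the carnitine transporter Slc22a5 at −1.50 on 10 against 23 reads, the acyl-CoA synthetase Acsl1 at −1.09, and Acacb, whose product malonyl-CoA inhibits the palmitoyltransferases, at −1.23. Only Slc22a5 of these 4 was called higher with exercise in tumor-bearing mice (1.66), while Cpt2 was at 0.95, Acacb at 0.82 and Acsl1 at 0.78. In E(+)T(−) vs. E(−)T(−) the list had a median of −0.03, with 1 gene higher and 1 lower.

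Of the other thioesterases, Acot13 had 7538, 9619, 8186 and 9877 reads and did not pass 2-fold, Acot9 was higher with tumor at rest (1.16), and Acot7 (−1.17) and Them4 (−1.10) were lower. With exercise in normal mice 0 of 8 thioesterase genes kept besides Acot1 and Acot2 were higher and 1, on under 5 reads, was lower. In the lipid droplet list, Plin3 had 1450, 1828, 1479 and 1588 reads, and the lipase Pnpla2 and its activator Abhd5 also stayed within 2-fold in every comparison, as Plin2 did. Plin1 had 52, 16, 0 and 76 reads and Cidec, which fuses lipid droplets in fat cells, had 230, 96, 14 and 150. Both were called lower with exercise in normal mice (−1.98 and −1.59) and with tumor at rest, where Cidec was at −4.33 and Plin1 at least 22.5-fold lower against the floor of 3 reads. Both were higher with exercise in tumor-bearing mice, Cidec at 3.65, and both are also among the 14 adipocyte markers. The monoglyceride lipase Mgll was lower with tumor at rest (−1.72) and higher with exercise in tumor-bearing mice (1.43), and G0s2, an inhibitor of Pnpla2, was lower with tumor at rest (−2.40) but not higher with exercise in tumor-bearing mice (0.20). Besides Plin2 and Plin5, 0 of 16 genes in the list were higher and 5 lower with tumor at rest, and 3 were higher and 0 lower with exercise in tumor-bearing mice.

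Among the PPARs and their partners, Ppard had 62, 99, 80 and 86 reads and Rxra had 308, 290, 331 and 233, and neither passed 2-fold in any comparison. Pparg had 84, 122, 85 and 47 reads and passed 2-fold only in E(+)T(+) vs. E(+)T(−), at −1.09. Rxrg, the retinoid X receptor of muscle, had 602, 640, 308 and 465 reads and was lower with tumor at rest (−1.34), and the coactivator gene Ppargc1b was at −1.26. The coactivator gene Ppargc1a had 813, 948, 554 and 1077 reads and was higher with exercise in tumor-bearing mice (1.27), as was Lpin1 (1.18), a partner of Ppargc1a. Of 16 receptor and cofactor genes kept besides Ppara, 0 were higher and 2, or 12.5%, lower with tumor at rest, against 14.6% higher and 13.1% lower of all genes, so that the share lower was near that of all genes, and 2 were higher and 0 lower with exercise in tumor-bearing mice.

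In a list of 40 other PPAR targets, which shares genes with the lists above, 2 of 35 kept were lower and 0 higher with exercise in normal mice, with a median of −0.08. These were Txnip, an inhibitor of glucose uptake, with 5552 reads in E(−)T(−) and 2499 in E(+)T(−) (−1.49), and the fatty acid transporter Slc27a1 (−1.61) on 33 and 13 reads. With tumor at rest 8 of 36 were lower and 0 higher, with a median of −0.68, and 32 of the 36 had a negative value. With exercise in tumor-bearing mice 5 of 37 were higher and 0 lower, with a median of 0.51, and 31 had a positive value. Fabp3, the fatty acid binding protein of heart muscle, is an example at high read counts, with 32588, 42932, 21710 and 36583 reads and log2 fold changes of 0.06, −0.96 and 1.06 in the 3 comparisons. The other targets thus mostly had the directions of Angptl4, Pdk4 and Ucp3 with tumor at rest and with exercise in tumor-bearing mice. These comparisons share the E(−)T(+) library, so a low value there gives both directions at once. The median differences of the other targets were smaller, and are relative to the median of all genes. With exercise in normal mice 25 of their values were negative and 10 positive, but the median was near 0.

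**Figure D3:**
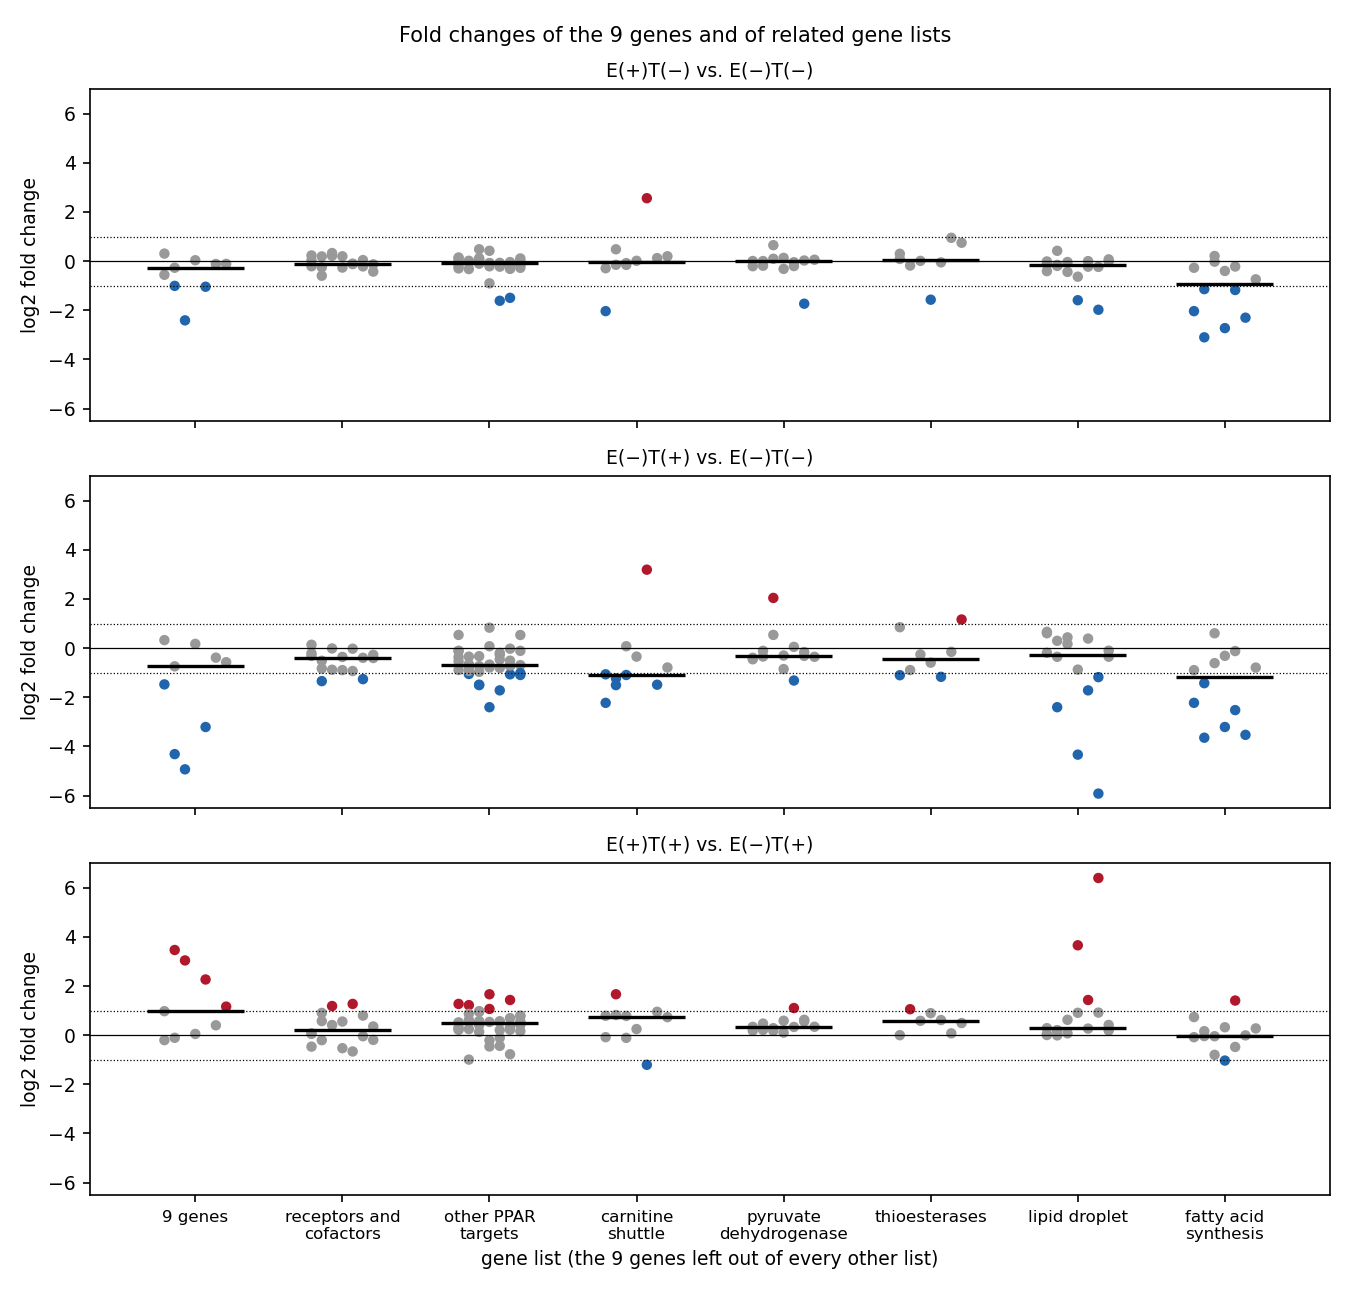
Log2 fold changes of the 9 genes and of related gene lists in 3 comparisons, 1 point per gene kept, with the median of each list as a bar. Blue and red points passed 2-fold lower and higher, grey points did not, and dotted lines mark 2-fold. With tumor at rest the median was −0.74 for the 9 genes and −0.68 for the other PPAR targets. The points of Plin1 at the ends of the lipid droplet column rest on 0 reads in E(−)T(+) and depend on the pseudocount of 1, as do the red points of Cpt1c in the carnitine shuttle, with 0 reads in E(−)T(−).

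The genes of fatty acid synthesis, which the fed state raises in many tissues, were set beside the members. Fasn, the fatty acid synthase, had 1632, 419, 183 and 146 reads and Scd1, a fatty acid desaturase, had 3162, 467, 328 and 295. Of 12 genes kept in this list, 6 were lower and 0 higher with exercise in normal mice, and 6 were lower and 0 higher with tumor at rest, as for Angptl4, Pdk4 and Ucp3. Both comparisons are against the same E(−)T(−) library, so the counts are not independent. With exercise in tumor-bearing mice, where those 3 members were higher, Fasn (−0.01) and Scd1 (0.16) were not, and 1 gene of the list was higher and 1 lower.

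The genes nearest in pattern were found over the 11624 genes whose mean reached 16 normalized reads, by the distance between the 4 log2 values after subtraction of the mean of each gene. With 4 libraries this is a description of 4 points per gene. Nearest to Angptl4 was Cidec at a distance of 0.88, the only gene within 1, followed by Adig (1.21) and Ankrd37 (1.27). Nearest to Pdk4 were 2310069G16Rik (0.29), Fam13a (0.35) and Kcnj2 (0.44), and 68 genes lay within 1. Nearest to Ucp3 were Mtag2 (0.43), Osbpl6 (0.49) and Ccpg1os (0.50), each with 2 or 3 reads in E(−)T(+), and 10 genes lay within 1. Angptl4 lay at 1.04 from Ucp3 and at 1.29 from Pdk4, and Pdk4 at 0.99 from Ucp3. For Plin5 the nearest were Asb14, Zfand1 and Cenpp, at 0.0865 to 0.0972, and for Ppara Lynx1, Paqr4 and Sort1, at 0.0655 to 0.117, with 2128 genes within 1 of Ppara.

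**Figure D4:**
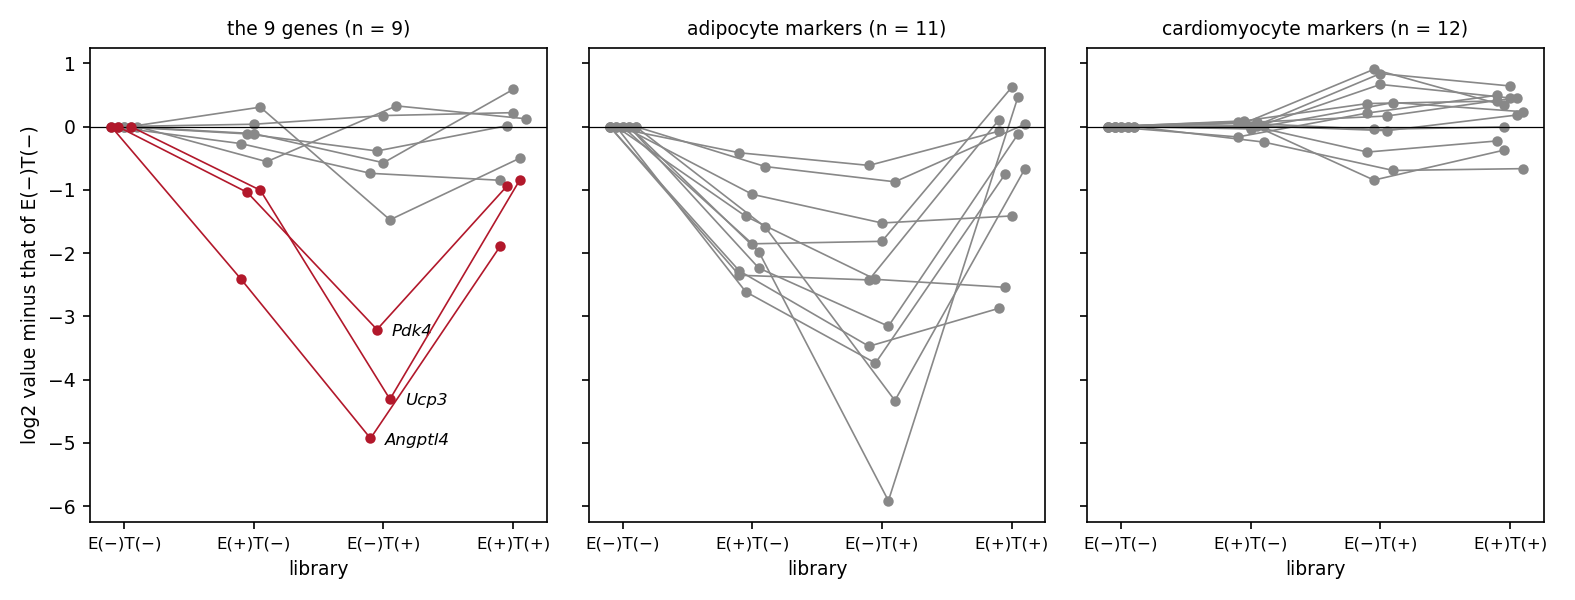
Log2 values of each gene minus its value in E(−)T(−), for the 9 genes, for the 11 adipocyte markers whose mean reached 16 normalized reads and for 12 cardiomyocyte markers, with 1 line per gene across the 4 libraries. Angptl4, Pdk4 and Ucp3 (red) and most adipocyte markers were lowest in E(−)T(+) and rose in E(+)T(+), whereas no cardiomyocyte marker passed 2-fold. The lowest adipocyte point is Plin1, at 0 reads.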

How the data were processed

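Heart mRNA of 4 mouse groups was measured by QuantSeq, 1 library per group. According to the study's methods and processing notes, the authors aligned reads with Bowtie2 to mm10, counted them with Bedtools and applied edgeR quantile normalization, with versions not given in the sources used here. The authors deposited log2 values of the normalized read counts, which hold a pseudocount of 1, and fold changes are differences of these. The fitted dispersion was 0.149, the deposited values were given back within 0.000597, and of 25460 values of 5 to 99 reads 100% were whole within a tolerance of 0.1.

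The members and gene lists were chosen with earlier results of these data known. Named list genes are direct partners of the members, and genes whose mean reached 16 normalized reads among the 4 largest changes of their list. From the marker lists come the most abundant, and Acsl1, Adipoq, Cpt1c, Dio2, Elovl3, Fasn, Scd1 and Slc27a2 were added after their values were seen. Some named list genes are not reported here. The read test was two-sided with the smaller tail doubled, adjusted over all genes kept. PCR copies are not independent molecules. The code was tested on simulated data. Values were computed in Python 3.11.15 with pandas 2.3.3, numpy 2.4.6 and scipy 1.17.1, and plotted with matplotlib 3.10.9.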

Additional observations from a re-analysis of the deposited data

Results flagged for a closer look

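The differences of Angptl4, Pdk4 and Ucp3 with exercise had opposite signs in normal and tumor-bearing mice. The log2 fold change with tumor minus that without was 5.446 for Angptl4, 3.304 for Pdk4 and 4.468 for Ucp3. Plin5 moved in opposite directions with tumor at rest (−0.57) and with tumor under exercise (0.70), a difference of 1.271 on the log2 scale. With 1 library per group these differences were not tested. That of Plin5 rests on the deposited scaling, since with scaling by library size its value with tumor under exercise was −0.02.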

How the results depend on the processing

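Of 595 values of single genes under the alternatives, 559 stayed within the counting interval of the main analysis and 36 did not, and no called difference changed sign. The 559 include values that could not move. Alternatives that change only the count minimum or the fold limit leave each fold change as it was. So does summing duplicate symbols, because 0 members were on a duplicate symbol. In E(+)T(+) vs. E(+)T(−), where 0 genes were called, 2 were called with scaling by library size and 3 with a limit of 1.5-fold. In E(+)T(+) vs. E(−)T(−), where 1 was called, 5 were called with scaling by library size, 4 without genes over 1% of a library, 4 without globin genes and 5 with a limit of 1.5-fold. Scaling by library size counts the globin reads of E(+)T(+), and it moved the median of all genes to −0.17, −0.60, −0.74 and −0.76 in the last 4 of the 5 comparisons. Of all genes in E(+)T(+) vs. E(−)T(+), 535 were then higher and 3604 lower, against 1349 and 1441. In E(+)T(−) vs. E(−)T(−), 819 of all genes were higher and 892 lower, against 389 and 417 with a minimum of 4 on the log2 scale (added after the data were seen), 376 and 406 with a minimum of 16 reads, 1264 and 1534 without a minimum and 1648 and 1808 with a limit of 1.5-fold. In E(+)T(+) vs. E(−)T(+), 800 were higher and 876 lower with the log2 minimum. With scaling by library size Plin2 had −0.19 in that comparison. The calls of Angptl4 and Pdk4 in the 3 comparisons of exercise in normal mice, tumor at rest and exercise in tumor-bearing mice held under every alternative run, and that of Ucp3 under all but the pseudocount of 4 in normal mice. With reads subsampled to the smallest library, Ppara was called in E(+)T(+) vs. E(−)T(+) (1.02). Acot1 and Acot2 summed stayed within 2-fold. The trimmed mean and median of ratios were computed with code written for these data. No paired analysis was possible because each group has 1 library, and no replicate could be left out.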
